A study of Mus musculus with 6 samples.

Results

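Imprinted genes were examined in cultured mouse aortic endothelial cells (MAEC) with an endothelial-specific knockout of Oct4. The set was 44 genes chosen by symbol from a list of known mouse imprinted genes, out of 54532 genes in the count table. All 44 were found, each on a single row. They lie in 18 imprinted clusters or single loci. In mice 22 are known to be expressed from the paternal copy, 19 from the maternal copy, and 3 (Gnas, Blcap and H13) from a copy that depends on the isoform. For 14 of the 44, imprinting is known only in some tissues or isoforms.

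The study prepared primary cultures from aortas of female and male knockout mice to ask what OCT4, the pluripotency factor encoded by Pou5f1, does in endothelial cells. Bulk RNA-seq was done on 3 female Oct4 KO and 3 male Oct4 KO libraries of untreated MAEC grown in serum-containing medium with endothelial growth factors. The knockout is carried by both groups, so the comparison is of sex within the knockout, and wild-type cells were not analysed here. The driver of the endothelial deletion and the age of the mice are not given in the sources used here, and nothing says if libraries of the same sex represent different mice or cultures, so the tests take in only library-to-library spread, which may be technical.

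An imprinted gene is transcribed mainly from the copy inherited from a single parent. The choice is set by DNA methylation laid down in the egg or sperm at a control region. After fertilisation it is kept by the zinc-finger proteins ZFP57 and ZFP445 with their partner TRIM28 and by the maintenance methyltransferase DNMT1. Neighbouring imprinted genes share a control region, and many clusters pair protein-coding genes with a long non-coding RNA made from the opposite parental copy. Many of these genes act on fetal and placental growth and are turned down after birth. The counts do not separate parental copies, so the expressed copy named here is background knowledge and imprinting itself was not measured.

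Total counts per library were 19299742 to 23064738. Pou5f1 had 0 counts in every library, which without wild-type cells does not check the genotype. Xist had 21282 to 31900 counts in female libraries and 0 to 8 in male libraries, and the Y-linked Ddx3y had 0 counts in female libraries and 731 to 1304 in male libraries, as the sex labels state. The endothelial label was poorly matched: of 10 endothelial markers 8 were too low to test, Emcn and Cldn5 had 0 counts in all 6 libraries and Cdh5 (VE-cadherin) had at most 4. The summed level of those 10 markers was 88.8 to 105 CPM (counts scaled to library size) in female and 228 to 289.8 CPM in male libraries, most of it Eng. The 7 fibroblast markers summed to 14303 to 15944 CPM in female and 5994 to 6479.9 CPM in male libraries, with all 7 detected. This sum was not uniform, as 5 of the 7 had a call toward female and 1 toward male cells. Dcn averaged 6368 CPM in female against 442 CPM in male libraries, and Lum 1684 against 138 CPM. Col1a2 went the other way, at 1182 against 1614 CPM (log2 -0.45 ± 0.07). Col1a1 had no call, at 1174 against 1142 CPM. Smooth muscle markers (5, mostly Acta2) summed to 3.81 to 5.77 CPM in female and 27.0 to 31.3 CPM in male libraries. Of 5 pericyte markers 4 were called higher in female cells, among them Cspg4 at 108 against 3.18 CPM, and Rgs5 was lower at 0.755 against 256 CPM. Of 5 leukocyte markers Ptprc and Adgre1 had 0 counts in all 6 libraries, Lyz2 was lower in female cells at 9.88 against 54.5 CPM and Cd68 was higher at 5.77 against 2.41 CPM. Longer genes also tended to be higher in female than in male libraries. For each library, the deviation of log2 CPM from the gene's mean over all 6 libraries was set against log2 gene length. The slope was 0.069 to 0.181 in female and -0.155 to -0.100 in male libraries. These slopes are relative between libraries and do not give the trend of CPM with length within a library. The part of cell makeup and of gene length in the differences that follow was not tested, except that length and GC content were removed in an alternative fit. In bulk RNA, fewer cells of a type and less RNA per cell cannot be told apart.

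Imprinted transcripts differed widely between female and male Oct4 KO cells. In the Kcnq1 cluster Cdkn1c was called higher and Slc22a18 lower in female cells, but each passed the filter only through the sex where it was high. The RNAs of the Dlk1-Dio3 cluster, of Igf2r and Airn, and of Peg3, Peg10, Plagl1, Rasgrf1 and Cdkn1c were higher in female cells. Ndn, Grb10, H13, Trappc9 and Slc22a18 were higher in male cells. A low-count filter (about 0.487 CPM in at least 3 libraries) kept 31 of the 44 genes. By edgeR's quasi-likelihood test with Benjamini-Hochberg adjustment over all genes, called at an adjusted p under 0.05, 16 of the 31 were higher and 7 lower in female cells, and 8 were not called. The background over all 14814 tested genes was 60.7% called, with 30.9% on the female-higher side and 29.8% on the female-lower side. The median log2 fold change, female over male, was 0.33 for the 31 genes and -0.01 for all genes. Since 7 of the 31 (Rtl1, Mest, Plagl1, Nnat, Cdkn1c, Ascl2 and Slc22a18) reached the filter level in every library of a single sex only, these counts partly follow from the filter. The other 24 split into 11 higher, 6 lower and 7 uncalled genes (median 0.26). Female and male CPM ranges were separate for 25 of the 31 genes, against 67.1% of all genes.

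**Figure D1:**
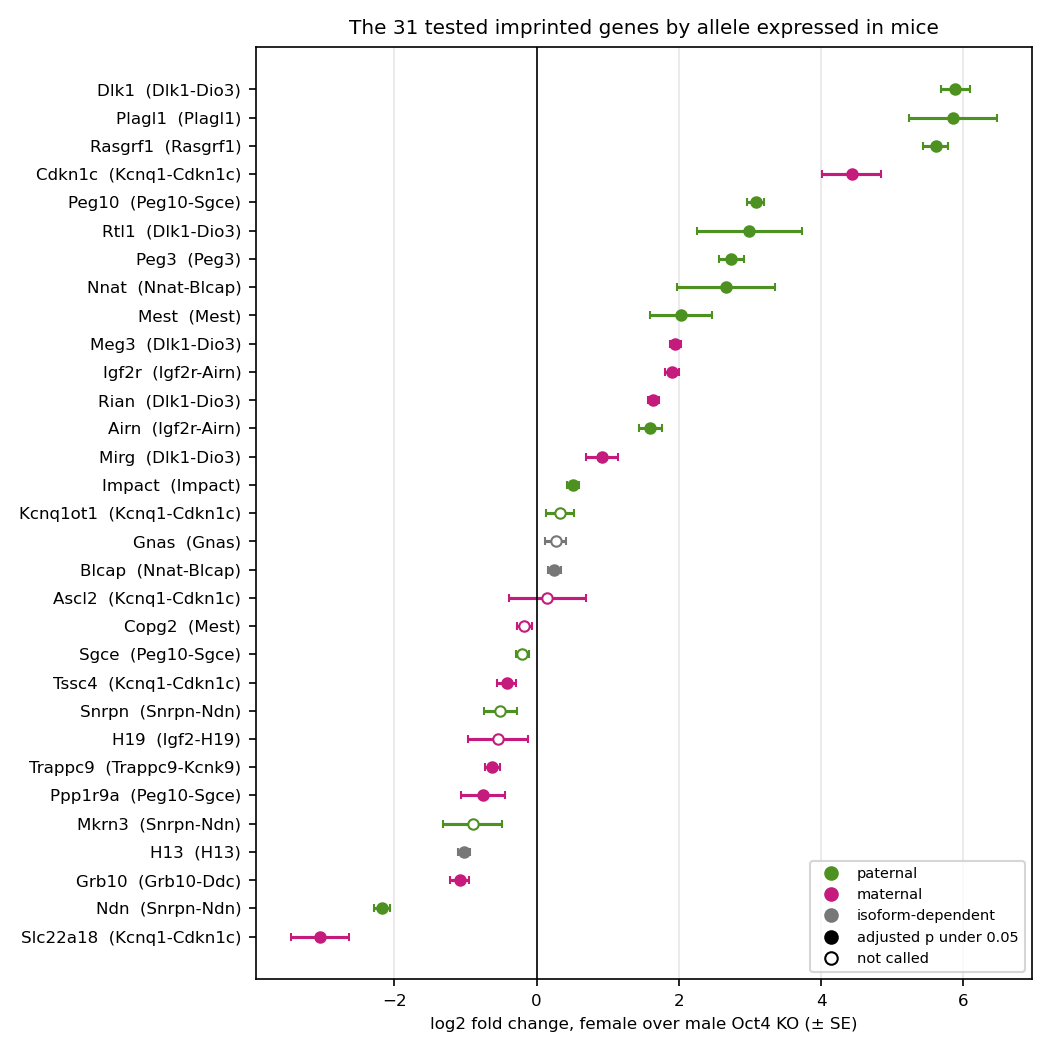
Log2 fold change, female over male Oct4 KO, ± SE, for the 31 tested imprinted genes, ordered by size; the colour gives the parental copy expressed in mice, filled points have an adjusted p under 0.05 and open points were not called. Dlk1, at 5.89 ± 0.21, and Plagl1, at 5.85 ± 0.62, stand at the top, and Slc22a18, at -3.04, at the bottom.

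By the parental copy known to be expressed, 10 of 15 tested paternally expressed genes were higher and only Ndn was lower in female cells, and the median over the 15 was 2.03 on the log2 scale. Of 13 tested maternally expressed genes 5 were higher and 5 lower, with a median of -0.17. Setting aside the genes imprinted only in some tissues or isoforms narrowed this contrast, to 9 higher, 1 lower and 4 uncalled paternally expressed genes (median 1.82) and 5 higher, 2 lower and 1 uncalled maternally expressed genes (median 1.28). Among genes that reached the filter level in both sexes, the paternally expressed ones were 6 higher, 1 lower and 4 uncalled (median 0.51), and the maternally expressed ones 4 higher, 4 lower and 2 uncalled (median -0.30). For scale, 30.9% of all tested genes had a call toward female cells and 29.8% a call toward male cells. Neither parental group was tested against these shares, and the difference between the parental groups was not tested.

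Start regions of genes with the largest or most coordinated differences are shown for their base composition, which differs from cluster to cluster. They were placed by RefSeq starts and not by the position of an imprinting control region. Where the control regions lie was not examined. Each sequence runs 5′ to 3′ along the gene and ends at the last base before the RefSeq start (GRCm38.p6), with CG dinucleotides in capitals. The Dlk1 and Meg3 regions lie on chr12:109452573-109452822 and chr12:109540746-109540995 of the plus strand, that of Igf2r on chr17:12769707-12769956 of the minus strand and that of Rasgrf1 on chr9:89909525-89909774 of the plus strand. The last sequence is the whole interval between the divergent starts of Peg3 and Usp29, chr7:6730420-6730582, read along Peg3 on the minus strand.
Dlk1: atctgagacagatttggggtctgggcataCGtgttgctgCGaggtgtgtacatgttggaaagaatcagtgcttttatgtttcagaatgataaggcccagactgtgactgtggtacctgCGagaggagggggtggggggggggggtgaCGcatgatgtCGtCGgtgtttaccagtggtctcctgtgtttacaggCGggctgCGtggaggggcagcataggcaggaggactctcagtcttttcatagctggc
Meg3: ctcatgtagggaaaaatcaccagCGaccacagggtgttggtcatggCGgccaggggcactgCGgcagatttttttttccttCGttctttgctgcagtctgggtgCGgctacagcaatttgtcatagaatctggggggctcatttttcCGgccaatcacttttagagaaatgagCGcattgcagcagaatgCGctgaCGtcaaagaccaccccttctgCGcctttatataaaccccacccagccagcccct
Igf2r: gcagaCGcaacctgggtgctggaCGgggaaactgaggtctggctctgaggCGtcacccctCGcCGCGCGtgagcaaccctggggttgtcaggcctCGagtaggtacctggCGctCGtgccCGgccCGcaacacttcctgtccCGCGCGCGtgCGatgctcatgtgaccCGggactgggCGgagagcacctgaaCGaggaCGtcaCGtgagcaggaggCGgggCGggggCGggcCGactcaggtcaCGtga
Rasgrf1: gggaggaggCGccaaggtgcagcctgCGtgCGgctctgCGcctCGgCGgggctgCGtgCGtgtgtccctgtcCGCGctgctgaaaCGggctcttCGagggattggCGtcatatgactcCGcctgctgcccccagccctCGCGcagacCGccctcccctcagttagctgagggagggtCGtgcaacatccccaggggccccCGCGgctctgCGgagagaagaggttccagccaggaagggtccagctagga
Peg3-Usp29: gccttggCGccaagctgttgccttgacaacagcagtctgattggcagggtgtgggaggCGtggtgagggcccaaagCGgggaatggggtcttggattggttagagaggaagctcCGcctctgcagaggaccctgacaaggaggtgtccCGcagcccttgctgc

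The 250 bases before the start held 8 CG dinucleotides at Dlk1, 10 at Meg3, 27 at Igf2r and 21 at Rasgrf1, and the 163 bases between Peg3 and Usp29 held 5. For Meg3 the RefSeq start with the most CG dinucleotides was used. The 250 bases before its other RefSeq start, at 109545398, held 0. Over all 32851 RefSeq promoters the median was 6 (quartiles 2 and 16), and over the 55 promoters found for 35 of the 44 genes it was 10. The letters TGCCGC, the core bound by ZFP57 when methylated, were searched on both strands (as TGCCGC or GCGGCA, each containing a CG). They occurred in 8 of the 55 promoters (14.5%), belonging to Zdbf2, Calcr, Mest, Copg2, Zim1, Plagl1 and Meg3, and in 8.68% of all promoters. In Meg3 the match began 190 bases before the start used here. The 2 Mest windows with a match overlap each other. A match describes these letters only; methylation was not measured.

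Dlk1 was among the imprinted genes with the largest differences, with Plagl1 and Rasgrf1, and all 5 tested members of its cluster in the set of 44 were higher in female cells. Among these 5, Rtl1 passed the filter only through the female libraries, so its call partly follows from the filter. Dlk1 (ENSMUSG00000040856, mm10 chromosome 12, 109452823 to 109463336), a paternally expressed membrane protein with EGF repeats that restrains adipocyte formation, was at 232, 322 and 283 CPM in the female libraries and 5.64, 6.14 and 2.55 CPM in the male libraries. The lowest female library was far above the highest male library (log2 fold change 5.89 ± 0.21, SE; edgeR adjusted p = 2.24e-13). Rtl1, a paternally expressed retrotransposon-derived gene needed for fetal capillaries of the placenta, had 15, 18 and 36 counts in female and 1, 7 and 1 counts in male libraries (log2 2.99 ± 0.74, edgeR adjusted p = 0.00226; without male replicate 2, log2 4.52). Dio3, which inactivates thyroid hormone, had 0 counts in each female library and 0, 2 and 3 counts in the male libraries and was not tested.

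The maternally expressed RNAs of the same cluster are long non-coding transcripts that host small RNAs. Meg3 (chromosome 12, 109541001 to 109571726) stood at 314, 349.9 and 336 CPM in female libraries and 83.6, 81.7 and 92.5 CPM in male libraries (log2 1.95 ± 0.08, edgeR adjusted p = 2.93e-12). Rian, the host of snoRNAs, was at 154, 177 and 160.2 CPM in female and 51.2, 51.8 and 54.8 CPM in male libraries (log2 1.64 ± 0.08). Mirg, the host of many microRNAs, was at 7.91, 6.75 and 8.0 CPM in female and 3.84, 2.87 and 5.18 CPM in male libraries (log2 0.92 ± 0.23, edgeR adjusted p = 0.00235). The sexes did not overlap for any of the 3 RNAs. With the length and GC correction the log2 differences of Meg3, Rian and Mirg were 1.40, 0.94 and 0.71, all still called.

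The genes of the cluster did not keep constant proportions to Meg3. Per Meg3 count there were 0.739, 0.921 and 0.842 Dlk1 counts in female libraries and 0.0674, 0.0752 and 0.0275 in male libraries. Rian stood at 0.492, 0.506 and 0.477 counts per Meg3 count in female and 0.612, 0.634 and 0.592 in male libraries. Mirg stood at 0.0252, 0.0193 and 0.0238 in female and 0.0459, 0.0351 and 0.0559 in male libraries. In female cells, Dlk1 was therefore higher and Rian and Mirg were lower relative to Meg3, with no overlap between the sexes; these ratios were not tested. Outside the imprinted genes, 3 genes within 250 kb of a cluster member could be tested: Ppp2r5c, beyond Dio3, was higher in female cells at 159 against 119 CPM (log2 0.42 ± 0.08, edgeR adjusted p = 0.000306), and 2 non-coding genes were not called. Begain, a gene of the Dlk1 domain outside the 44, was lower in female cells, at 13.4 ± 2.73 against 18.7 ± 0.406 CPM (SD, n = 3 each; log2 -0.49 ± 0.15, edgeR adjusted p = 0.0111).

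**Figure D2:**
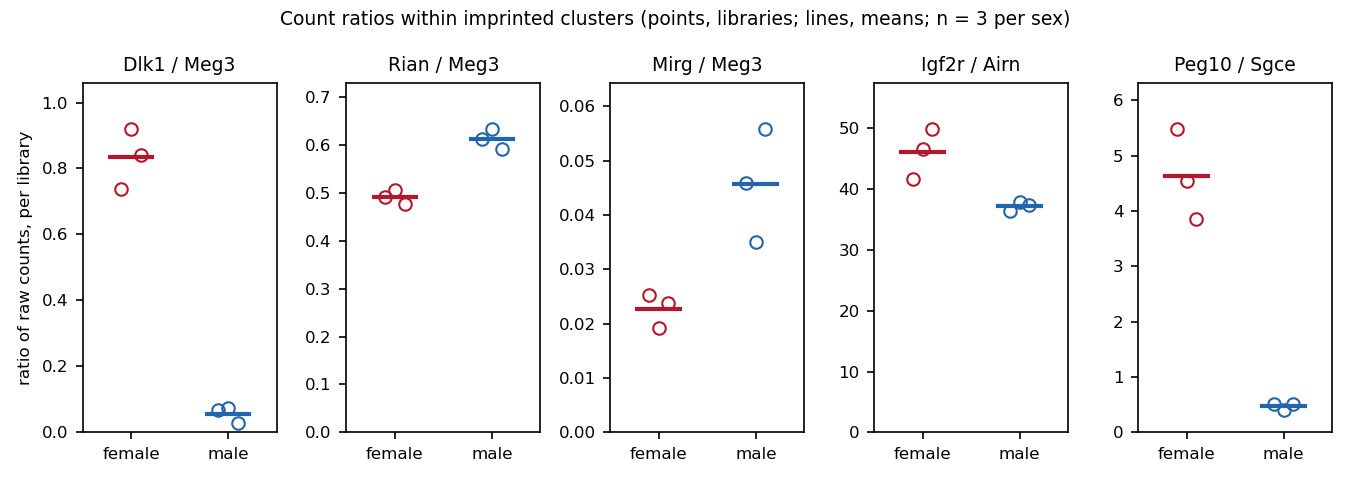
Raw count ratios within clusters for each library (circles) and their means (lines), female left of male, 3 libraries per sex, each axis starting at 0. Dlk1 per Meg3 lies between 0.739 and 0.921 in female and between 0.0275 and 0.0752 in male libraries, while Igf2r per Airn lies between 41.6 and 49.9 and between 36.3 and 37.9.

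At the Igf2r locus both overlapping transcripts were higher in female cells, although they are made from opposite parental copies. Igf2r (ENSMUSG00000023830, chromosome 17, 12682406 to 12769664), the maternally expressed receptor that clears IGF2 and carries enzymes to lysosomes, was at 1020.2, 1145 and 893 CPM in female libraries and 258, 250.4 and 313 CPM in male libraries (log2 1.90 ± 0.10, edgeR adjusted p = 7.81e-11). Airn, the antisense RNA that silences the paternal Igf2r copy in cis, was at 24.5, 24.6 and 17.9 CPM in female and 7.11, 6.60 and 8.38 CPM in male libraries (log2 1.60 ± 0.16, edgeR adjusted p = 2.52e-07). There were 41.6, 46.5 and 49.9 Igf2r counts per Airn count in female libraries and 36.3, 37.9 and 37.3 in male libraries. With the length and GC correction the log2 differences of Igf2r and Airn were 1.58 and 1.60, nearly equal, so the difference in this ratio depended on the processing. The exons of the 2 genes do not overlap, but reads from unspliced Igf2r RNA could fall on Airn exons, and no source used here says whether counting used strand. Of 11 other tested genes within 250 kb, 4 were higher, 5 lower and 2 uncalled (median log2 -0.21).

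The ligand side of this axis was barely read. Igf2, the paternally expressed fetal growth factor, had 6, 13 and 13 counts in female libraries and 0 in each of the male ones. The female mean, 0.538 CPM, was 3.87-fold above the mean level of a limit of 3 counts per male library. That ratio takes the few female counts as exact, so it is not a firm lower bound. The gene was under the filter in the main fit, and 62.8% of its exon bases are shared with Gm49394. H19, the maternally expressed RNA of the same locus, had 16, 24 and 23 counts in female and 35, 29 and 36 counts in male libraries. Its CPM did not overlap between the sexes, but the test did not call it (log2 -0.54 ± 0.42, edgeR adjusted p = 0.280).

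Peg10 and Sgce, paternally expressed neighbours whose annotated 5′ ends are 98 bases apart and face away from each other, differed in behaviour. Peg10 (chromosome 6, 4747306 to 4760517), a retrotransposon-derived gene needed for the placenta, was at 293, 231 and 216 CPM in female libraries and 32.6, 26.5 and 28.1 CPM in male libraries (log2 3.08 ± 0.12, edgeR adjusted p = 7.13e-13). Sgce, which encodes epsilon-sarcoglycan, was at 53.4, 50.9 and 56.0 CPM in female and 62.6, 66.3 and 55.2 CPM in male libraries, with overlap (log2 -0.20 ± 0.09, adjusted p = 0.0730). There were 5.49, 4.55 and 3.85 Peg10 counts per Sgce count in female libraries and 0.521, 0.400 and 0.510 in male libraries. Sgce was called lower with the length and GC correction (log2 -0.72, edgeR adjusted p = 3.41e-05), with total-count scaling (-0.31, 0.00695), with upper quartile scaling (-0.28, 0.0162) and without male replicate 3 (-0.28, 0.0269), so it was at no setting higher in female cells.

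The remaining listed members of this cluster were low or at 0. Ppp1r9a, which encodes the actin-binding protein neurabin, stood at 3.33, 2.35 and 1.87 CPM in female and 5.07, 2.92 and 4.77 CPM in male libraries, which overlap (log2 -0.75 ± 0.31, edgeR adjusted p = 0.0425). Its call was lost without female replicate 2 or 3 and without male replicate 1 or 3 (edgeR adjusted p = 0.0867, 0.141, 0.157 and 0.121). Asb4 had 1 to 5 counts in every library, and the calcitonin receptor gene Calcr had 0 in all 6.

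**Figure D3:**
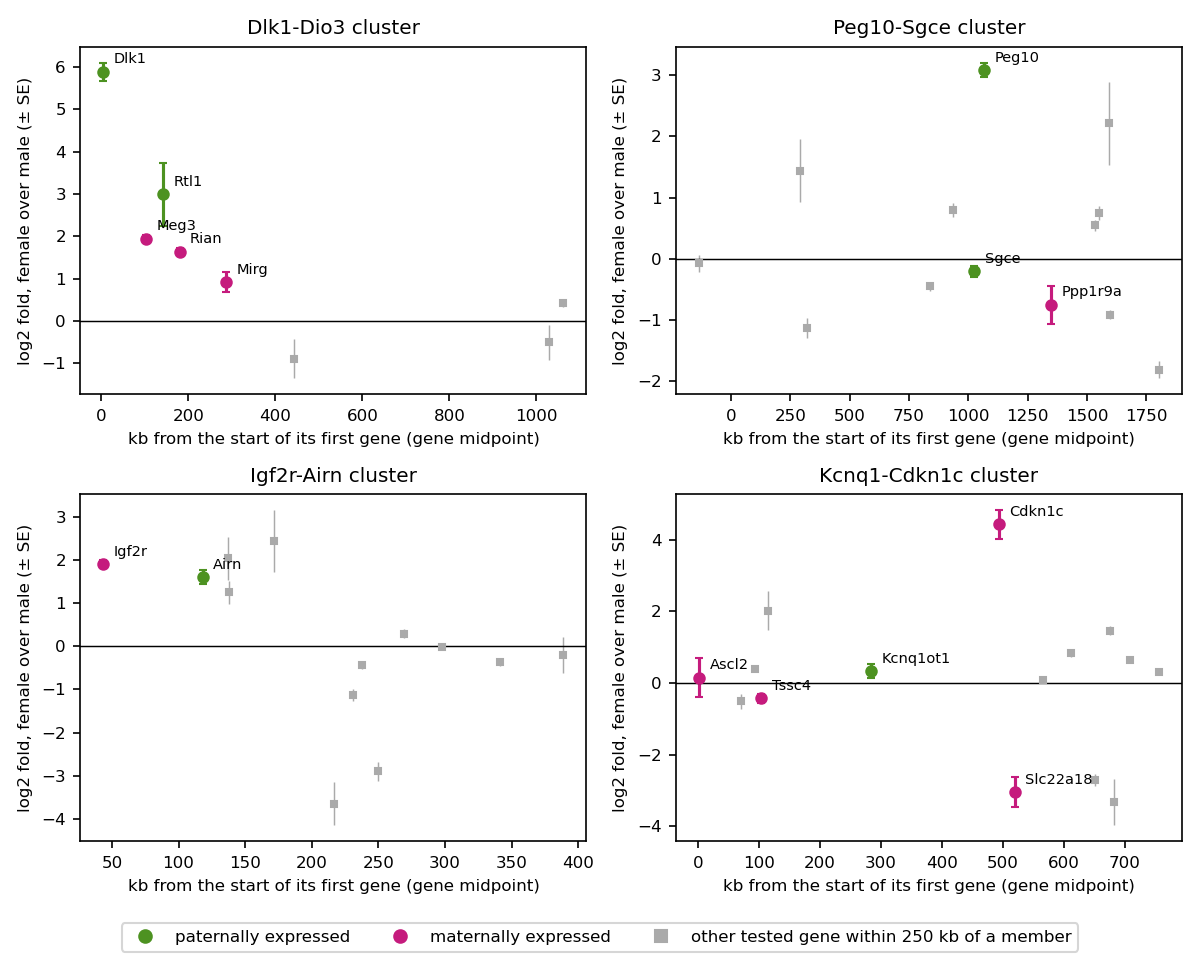
Log2 fold change, female over male Oct4 KO, ± SE, against the distance of each gene's midpoint from the start of the leftmost listed gene in each of 4 clusters, in kb; circles are tested imprinted genes and grey squares other tested genes within 250 kb of a member. In the Dlk1-Dio3 panel the 5 circles lie above 0, whereas Peg10 and Sgce, and Cdkn1c and Slc22a18, lie far apart on the vertical axis. Rtl1 and Cdkn1c passed the filter only through the female libraries, and Slc22a18 only through the male libraries.

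Peg3, a paternally expressed zinc-finger gene of growth and maternal behaviour, was at 31.3, 35.5 and 27.9 CPM in female libraries and 5.12, 3.32 and 5.59 CPM in male libraries (log2 2.74 ± 0.18, edgeR adjusted p = 7.03e-10). Usp29, a ubiquitin peptidase gene that starts 146 bases away on the other strand in the table's annotation, had 4, 0 and 8 counts in female and 0, 0 and 1 in male libraries. Zim1, the maternally expressed gene beside Peg3, had 0 counts in all 6. The 4 other genes tested within 250 kb, Zfp954, Zfp772, Zfp418 and Gm45844, were at -0.31 to 0.29 on the log2 scale and were not called.

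Plagl1 and Cdkn1c had few or no counts in male cells. Plagl1 (chromosome 10, 13060504 to 13131694), a paternally expressed zinc-finger transcription factor that arrests the cell cycle, had 95, 114 and 73 counts in female and 0, 0 and 5 counts in male libraries (log2 5.85 ± 0.62, edgeR adjusted p = 3.90e-07). Cdkn1c (chromosome 7, 143458339 to 143461050), which encodes the maternally expressed CDK inhibitor p57, had 129, 90 and 110 counts in female and 5, 8 and 3 counts in male libraries (log2 4.43 ± 0.41, edgeR adjusted p = 7.08e-08). Levels stayed modest in female cells, at 4.70 ± 1.07 CPM for Plagl1 and 5.47 ± 0.814 CPM for Cdkn1c, against 0.0685 ± 0.119 and 0.254 ± 0.141 CPM in male cells (SD, n = 3 each). Both passed the filter through the female libraries, the fitted fold of Plagl1 rests on 5 male counts (without male replicate 3, which held them, log2 9.57, and with limma-voom 6.50), and 30.7% of Cdkn1c exon bases are shared with Gm44732 on the other strand.

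The other listed members of the Kcnq1 cluster were lower in female cells or not called. Slc22a18, a maternally expressed transporter gene close to Cdkn1c on the chromosome, went the other way, with 23, 4 and 12 counts in female and 124, 110 and 114 counts in male libraries (log2 -3.04 ± 0.41, edgeR adjusted p = 5.83e-06; without female replicate 1, log2 -3.70). It passed the filter through the male libraries. Kcnq1ot1, the paternally expressed RNA that silences this cluster, was at 9.12, 13.1 and 8.56 CPM in female and 6.63, 8.41 and 9.45 CPM in male libraries, which overlap (log2 0.33 ± 0.20, edgeR adjusted p = 0.164). With the length and GC correction its value turned to -0.73 and was called (edgeR adjusted p = 0.00180); its annotated length of 93092 bases is far outside that of most genes. Tssc4 was at 21.0, 17.1 and 22.8 CPM in female and 25.8, 26.4 and 29.2 CPM in male libraries (log2 -0.42 ± 0.13, edgeR adjusted p = 0.00874), which was no longer called once length and GC were corrected (log2 -0.02, edgeR adjusted p = 0.885). Ascl2, a trophoblast transcription factor gene, had 10 to 14 counts in female and 9 to 16 in male libraries and was not called. Phlda2, a placental growth inhibitor gene, was read in a single library of each sex (5 and 9 counts), and the potassium channel gene Kcnq1 had 0 counts in all 6. Of 10 other tested genes within 250 kb, 6 were higher, 3 lower and 1 uncalled (median log2 0.36), the higher ones including Cd81 (log2 0.40 ± 0.08) and Osbpl5 (log2 0.32 ± 0.09), and Tnfrsf26 was lower (log2 -2.70 ± 0.16).

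Rasgrf1 (ENSMUSG00000032356, chromosome 9, 89909908 to 90026977), a Ras exchange factor gene paternally expressed in mouse brain, stood at 131, 187 and 128 CPM in female libraries and 2.79, 2.57 and 3.66 CPM in male libraries (log2 5.61 ± 0.17, edgeR adjusted p = 4.30e-14). Even the lowest female library was many times above the highest male library. Of 6 other tested genes within 250 kb, Tbc1d2b, Adamts7 and 9430062P05Rik were higher, Ctsh and Tmed3 lower and Morf4l1 not called; the largest of these differences was that of Adamts7, at 217 against 71.7 CPM (log2 1.60 ± 0.08).

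Of the listed members of the Snrpn-Ndn cluster, which corresponds to the human Prader-Willi region, Ndn was the only one called. This paternally expressed gene, which encodes necdin, was at 15.2, 20.7 and 19.5 CPM in female libraries and 81.9, 88.4 and 78.8 CPM in male libraries (log2 -2.17 ± 0.11, edgeR adjusted p = 4.20e-11). Mkrn3, a ubiquitin ligase gene, had 21, 17 and 22 counts in female and 45, 24 and 55 in male libraries and was not called (log2 -0.90 ± 0.42, edgeR adjusted p = 0.0750). Snrpn, which encodes a splicing protein, was at 4.58, 3.63 and 3.54 CPM in female and 5.02, 6.25 and 5.55 CPM in male libraries, without overlap and without a call (log2 -0.51 ± 0.23, edgeR adjusted p = 0.0593). Its count is uncertain because 27.3% of its exon bases are shared with Gm38393. Magel2, between Ndn and Mkrn3, had 0 counts in all 6 libraries. Outside the 44, Peg12 was lower in female cells, at 1.46 against 3.83 CPM (log2 -1.40 ± 0.40, edgeR adjusted p = 0.00622), Ube3a was higher, at 88.0 against 47.9 CPM (log2 0.88 ± 0.10, edgeR adjusted p = 1.31e-06), and Gm38393 was higher at under 1 CPM in both sexes (log2 2.09 ± 0.69, edgeR adjusted p = 0.0145).

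Grb10 and H13 were both lower in female cells. Grb10, a maternally expressed adaptor that dampens insulin and IGF receptor signalling, was at 10.3, 11.1 and 11.7 CPM in female libraries and 22.5, 22.8 and 24.8 CPM in male libraries (log2 -1.08 ± 0.13, edgeR adjusted p = 1.78e-06). Its neighbour Ddc, the dopa decarboxylase gene, had 2 counts in a single female library and none elsewhere. H13, which encodes signal peptide peptidase, was at 191, 222 and 208 CPM in female and 407, 455 and 402 CPM in male libraries (log2 -1.02 ± 0.08, edgeR adjusted p = 1.44e-08). Mcts2, a paternally expressed gene inside an H13 intron, was also lower in female cells, at 5.14 ± 1.82 against 8.15 ± 1.40 CPM (SD, n = 3 each; log2 -0.67 ± 0.25, edgeR adjusted p = 0.0288).

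Trappc9, a gene of vesicle tethering, was at 38.0, 42.4 and 37.9 CPM in female and 56.4, 67.3 and 57.8 CPM in male libraries (log2 -0.62 ± 0.10, edgeR adjusted p = 3.64e-05). Peg13, the paternally expressed RNA inside a Trappc9 intron, went the other way, at 40.0, 37.7 and 31.0 CPM in female and 14.6, 15.4 and 16.8 CPM in male libraries (log2 1.21 ± 0.12, edgeR adjusted p = 2.79e-07). The host gene and the RNA within it thus stood on opposite sides of 0 with no overlap between the sexes for either. Kcnk9, a potassium channel gene of the same cluster, had 0 counts in all 6 libraries.

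Mest and Nnat, paternally expressed genes paired with a broadly expressed neighbour, were low in both sexes. Both passed the filter only through the female libraries. Mest, a gene of a hydrolase-like protein, had 47, 36 and 39 counts in female and 12, 9 and 11 counts in male libraries (log2 2.03 ± 0.44, edgeR adjusted p = 0.000730). Copg2, a vesicle coat gene on the other strand, was at 31.6, 36.2 and 40.8 CPM in female and 43.0, 37.5 and 41.7 CPM in male libraries and was not called (log2 -0.17 ± 0.11, edgeR adjusted p = 0.190). It was called lower with the length and GC correction (-0.37, edgeR adjusted p = 0.00540) and with total-count scaling (-0.29, 0.0331). Their exons share 912 bases, 23.1% of those of Mest, so both counts are uncertain there.

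Nnat, which encodes a small membrane proteolipid and lies inside Blcap on the other strand, had 43, 21 and 56 counts in female and 5, 0 and 16 counts in male libraries (log2 2.66 ± 0.69, edgeR adjusted p = 0.00296; without male replicate 3, log2 3.97, and with limma-voom 3.42). Blcap was at 81.0, 70.8 and 66.0 CPM in female and 62.0, 61.3 and 60.3 CPM in male libraries (log2 0.25 ± 0.09, edgeR adjusted p = 0.0264). That call was lost with total-count scaling (log2 0.13, edgeR adjusted p = 0.230), with upper quartile scaling (0.17, 0.114), without female replicate 1 (0.16, 0.190) and without male replicate 1, 2 or 3 (adjusted p = 0.0663, 0.0586 and 0.0784).

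Gnas, whose transcripts from alternative first exons differ in the expressed parental copy and which encodes the stimulatory G protein subunit, was at 115, 90.6 and 105 CPM in female and 74.7, 67.8 and 115 CPM in male libraries. The male replicate 3 library reached the female range, and the gene was not called (log2 0.27 ± 0.15, edgeR adjusted p = 0.128). Without that library it was called (log2 0.53, edgeR adjusted p = 0.000681), and with the length and GC correction its value was -0.03. Impact, the paternally expressed inhibitor of the stress kinase GCN2, was at 128, 148 and 130.2 CPM in female and 99.3, 89.5 and 97.2 CPM in male libraries, without overlap (log2 0.51 ± 0.08, edgeR adjusted p = 6.28e-05). The amino acid transporter gene Slc38a4 had 0 to 8 counts in female and 1 to 15 in male libraries, and Zdbf2 had 0 in all 6.

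**Figure D4:**
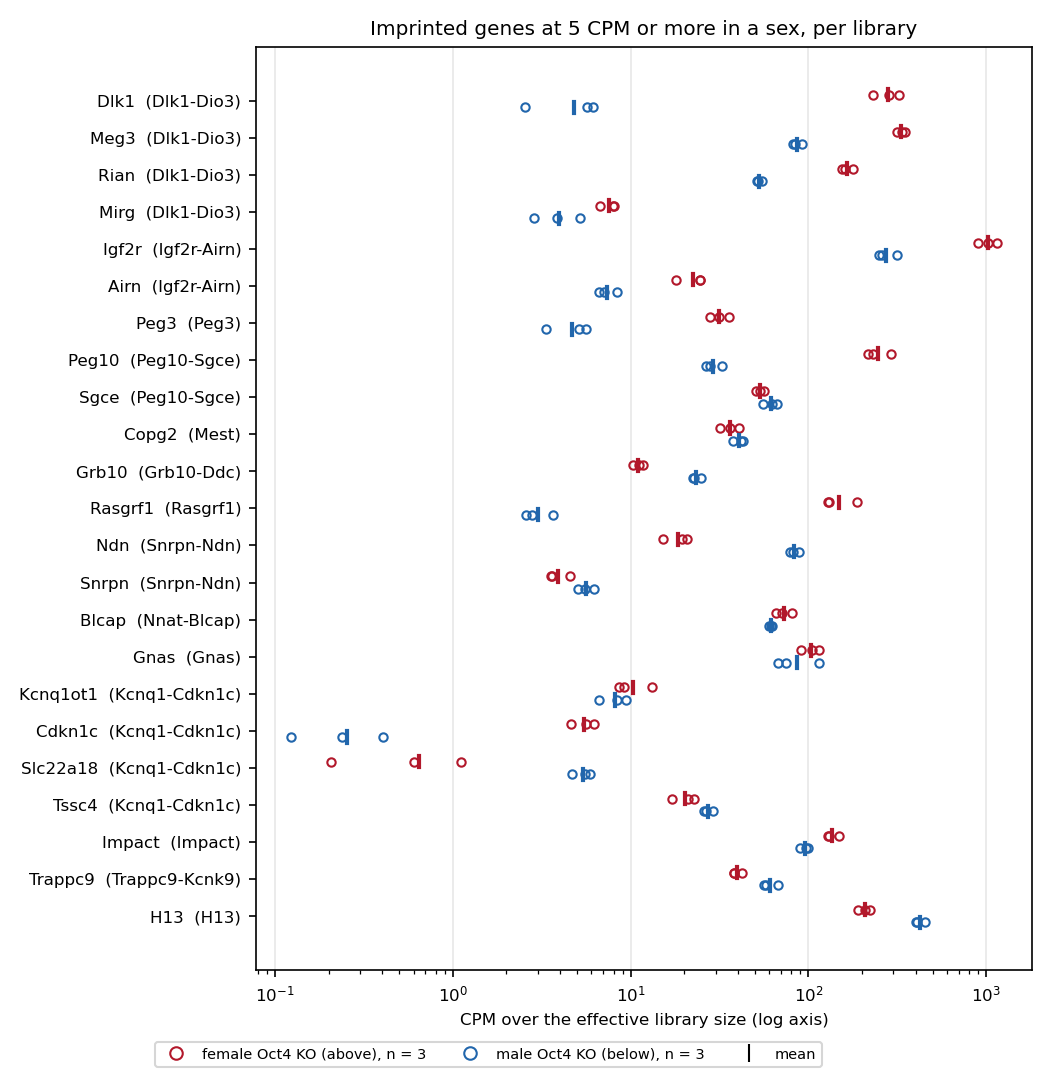
CPM on a log axis in each library (circles) and the mean (bars) for the 23 tested imprinted genes at 5 CPM or more in a sex, female above male for each gene, 3 libraries per sex. The sexes are far apart for Dlk1 and Rasgrf1 and overlap for Sgce, Copg2, Gnas and Kcnq1ot1.

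Divided by gene length, the order of the imprinted transcripts also differed between the sexes. In female cells Igf2r was first at 109.5 ± 13.5 CPM per kb, followed by Dlk1 at 49.3 ± 8.02, Impact at 39.5 ± 3.18 and Peg10 at 37.0 ± 6.13 (SD, n = 3). The SD ranges of the last 3 of these overlapped. In male cells H13 led at 47.4 ± 3.29 CPM per kb, followed by Igf2r at 29.4 ± 3.64, Impact at 27.8 ± 1.51, Ndn at 22.5 ± 1.32 and Blcap at 20.1 ± 0.275 (SD, n = 3). The SD ranges of Igf2r and Impact overlapped. Dlk1 was at 0.844 ± 0.344 and Peg10 at 4.36 ± 0.470 CPM per kb in male cells.

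Other genes reported as imprinted in mice, or lying beside imprinted genes, were examined beside the 44. Of 48 listed, 31 could be tested, with 17 higher, 6 lower and 8 uncalled, and the median log2 was 0.32; the background was again 30.9% and 29.8%. The 4 with the smallest adjusted p were Slc38a1, Ago2, Pon2 and Pde10a. Slc38a1, a glutamine transporter gene more than 250 kb from Slc38a4, was at 1.69, 2.35 and 2.18 CPM in female and 35.3, 29.9 and 37.1 CPM in male libraries (log2 -4.04 ± 0.17, edgeR adjusted p = 2.53e-12). Ago2, the slicing Argonaute gene near Trappc9, was at 187 ± 27.9 CPM in female and 73.2 ± 5.64 CPM in male cells (SD, n = 3 each; log2 1.35 ± 0.10). Pon2, a lactonase gene near Peg10, stood at 47.5, 54.4 and 51.1 CPM in female and 99.2, 95.5 and 93.5 CPM in male libraries (log2 -0.91 ± 0.08). Pde10a, a phosphodiesterase gene, stood at 52.0 ± 4.07 CPM in female and 24.7 ± 1.97 CPM in male cells (log2 1.07 ± 0.10). Of 100 tested genes within 250 kb of an imprinted gene but outside the 44, some of them in this list, 30 were higher and 39 lower (median log2 -0.13).

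Genes that set or keep imprints were called about as often as genes in general. Of 21 listed, 19 could be tested, with 5 higher, 7 lower and 7 uncalled in female cells (median log2 0.03), beside 30.9% higher and 29.8% lower among all genes. Tet2, an enzyme gene of DNA demethylation, was at 58.9, 61.9 and 42.6 CPM in female and 13.4, 8.21 and 13.4 CPM in male libraries (log2 2.22 ± 0.17, edgeR adjusted p = 8.16e-09). Mbd3, a gene of the NuRD repressor complex, was at 90.8 ± 7.39 CPM in female and 198 ± 15.5 CPM in male cells (SD, n = 3 each; log2 -1.13 ± 0.09). Uhrf1, which brings DNMT1 to replicating DNA, was at 14.4 ± 2.63 CPM in female and 38.9 ± 4.04 CPM in male cells (log2 -1.43 ± 0.14). Dnmt3l, a cofactor of imprint establishment in germ cells, had 2.17 ± 0.869 CPM in female and 11.5 ± 0.709 CPM in male cells (log2 -2.40 ± 0.25).

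The imprint-keeping genes named in the opening, taken up for that role after their values were seen, were all read. Zfp57 was at 26.9, 29.7 and 27.9 CPM in female and 40.0, 42.8 and 40.6 CPM in male libraries (log2 -0.54 ± 0.10, edgeR adjusted p = 0.000136). Trim28 was at 240.3 ± 5.28 CPM in female and 325 ± 24.7 CPM in male cells (SD, n = 3 each; log2 -0.44 ± 0.08), while Zfp445 was higher in female cells, at 103 ± 8.29 against 68.9 ± 9.99 CPM (log2 0.57 ± 0.10). Dnmt1 stood at 69.4 ± 2.35 CPM in female and 67.9 ± 2.63 CPM in male cells and was not called (log2 0.03 ± 0.08, edgeR adjusted p = 0.766).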

How the data were processed

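Reads were aligned with HISAT2 2.0.5 and counted with featureCounts 1.5 on mm10, per the submitters' processing notes. Messenger RNA was selected with poly-T beads, and the library protocol in the labels allows stranded and unstranded versions, and the settings for strand and multi-mapping are not given in the sources used here. The deposited table holds raw counts per gene that the authors did not normalise, with a gene length in bases. Its 6 sample columns were matched by library name, with 0 other sample columns; 99.8% of identifiers were in GENCODE M21.

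Counts were fitted for all genes with edgeR 4.0.16 in R 4.3.3 (filterByExpr, TMM, glmQLFit, glmQLFTest, sex as the only term), two-sided, with Benjamini-Hochberg adjustment. CPM uses effective library sizes, and an SE is the absolute log2 fold change over the root of the F statistic. A limit of 3 counts stands for the upper bound of a count of 0 at 95% and covers counting error only. Alternatives were DESeq2 1.42.0 size factors and Wald test, limma 3.58.1 voom, other scalings and filters, the replicate block, an offset for length and GC, and leaving out each library. No 2 libraries of a sex agreed within counting error (chi-square over its degrees of freedom, 7.00 to 14.7).

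The members and lists were chosen with earlier results of these data known. Per-library values were given for tested members with a mean of at least 5 CPM in a sex, and for other lists the 4 genes with the smallest adjusted p. Members under that level that are described, and Peg13, Mcts2, Begain, Peg12, Ube3a, Zfp57, Zfp445, Trim28, Dnmt1 and neighbouring genes, were named after their values were seen. Start sequences are from RefSeq (GRCm38.p6).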

Additional observations from a re-analysis of the deposited data

How the results depend on the processing

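Of the 31 tested imprinted genes, 22 kept their direction and their side of the threshold under all 16 alternatives that tested them. The exceptions were Sgce, Ppp1r9a, Copg2, Mkrn3, Snrpn, Blcap, Gnas, Kcnq1ot1 and Tssc4, and of these only Gnas and Kcnq1ot1 changed sign: with the length and GC correction they were at -0.03 and -0.73 (log2), and with that correction and the replicate block at -0.0009 and -0.72. Snrpn was called lower with upper quartile scaling (edgeR adjusted p = 0.0316), total counts (0.0227) and without female replicate 1 (0.0490), and Mkrn3 with total counts (0.0455) and without male replicate 2 (0.0276). With total counts, which moved the median of all genes to -0.13, 11 imprinted genes were lower rather than 7; the 4 gained were Sgce, Copg2, Mkrn3 and Snrpn and the call lost was Blcap. Without a filter, 38 imprinted genes were tested, and Igf2 and Gnas were also called. Igf2 was also tested and called higher in female cells without female replicate 1 and without male replicate 1, 2 or 3. In those fits it passed the filter through the female libraries. Requiring a mean of 5 CPM left 20 imprinted genes, 11 higher and 5 lower. Leaving out single libraries gave 16 to 17 higher and 6 to 8 lower. It gave 19 to 23 calls among the further imprinted genes, 9 to 13 among the imprint maintenance genes and 8235 to 8841 among all genes, where all libraries gave 23, 12 and 8993. Same-numbered libraries of the sexes did not deviate together (r -0.16 to -0.03). With 3 libraries per sex this cannot show whether they were prepared together, which the sources used here do not say. With the replicate block 16 imprinted genes were still higher, 7 lower and 8525 genes called in all. The low-count filter left 13 genes untested in the main fit, 6 of them at 0 counts in every library.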
